A study of Mus musculus with 2 samples.

Results

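The genes Otx2, Fgf5, Pou3f1 and Zic2 rise when mouse embryonic stem (ES) cells leave the naive state, and they were examined here as 4 of 21887 protein-coding genes in a map of TOBF1 binding. Each deposited TOBF1 peak with its midpoint inside a gene, or within 100 kb of its RefSeq span on the mm10 build, was taken for that gene. By this rule 14 of the 12012 peaks on chromosomes 1 to 19, X and Y belonged to the 4 genes, and none was shared between them. Binding was measured by ChIP-Seq in the R1/E line of ES cells, which carried TOBF1 tagged in a BAC (bacterial artificial chromosome), a long cloned stretch of DNA that adds a copy of the gene; whether the line is a single clone is not stated. TOBF1 is the product of A830080D01Rik, a gene that RefSeq lists as Bclaf3. The cells grew in medium with fetal bovine serum and LIF, and their chromatin was fixed with formaldehyde and DSG. The ChIP group was 1 library made with an antibody against GFP, and the control group was 1 input library from cells with the same construct, made without antibody. The peak list of the ChIP library was analysed, and the input was not analysed here.

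Naive ES cells resemble the epiblast before implantation. On the way to lineage choice they pass through a formative state and a primed state, in which part of the naive network is shut down and another set of factors is turned on. OTX2 is a homeodomain factor that drives the start of this transition and directs OCT4 to new enhancers. POU3F1, also known as Oct6, is a POU domain factor of the later epiblast and of neural cells. ZIC2 is a zinc finger factor of the epiblast and the neural plate. FGF5 is a secreted growth factor that serves as a standard marker of the epiblast after implantation, and enhancers in the gap downstream of its gene are known to act in that state.

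The deposited list held 12181 peaks, the scaffolds outside the chromosomes included, and gave a score for each. The scores ran from 1.30 to 216.1 with a median of 9.97, and they were read as −log10 of a q-value, so that a high score marks a peak far above its local background. There was 1 ChIP library, so the values have no replicate error, and all comparisons are descriptions within this list, with no test. The number of reads behind a peak is unknown. Neither expression data nor a ChIP of cells without the tag was used here. The state of the cells was therefore not checked against marker genes, and TOBF1 binding and signal that arises with any antibody cannot be told apart.

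All 4 genes had a peak within the window, but they differed widely in number and score. Having at least 1 peak is common, since 59% of all protein-coding genes had one. Otx2 had 8 peaks with a highest score of 78.7, Zic2 had 3 with a highest score of 57.5, Fgf5 had 2 with a highest score of 17.2, and Pou3f1 had 1 with a score of 2.95. Of all protein-coding genes, 1.52% had 8 or more peaks, 16.3% had 3 or more and 31.3% had 2 or more. The median gene had 1 peak. With peaks under the list's median score left out, Otx2 and Zic2 had 3 peaks each, and 5.47% of protein-coding genes had at least as many. Within 50 kb, the highest score was 78.7 at Otx2 and 24.1 at Zic2. A highest score at or above that of Otx2 was found at 1.61% of protein-coding genes, at or above that of Zic2 at 3.94%, at or above that of Fgf5 at 26.9% and at or above that of Pou3f1 at 58.1%. Otx2 and Zic2 therefore lay in the upper range of all protein-coding genes by their strongest peak. Among the genes that had a peak, the median highest score was 15.3. Fgf5 lay a little above this median, and Pou3f1 was among the weakest of these genes.

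**Figure D1:**
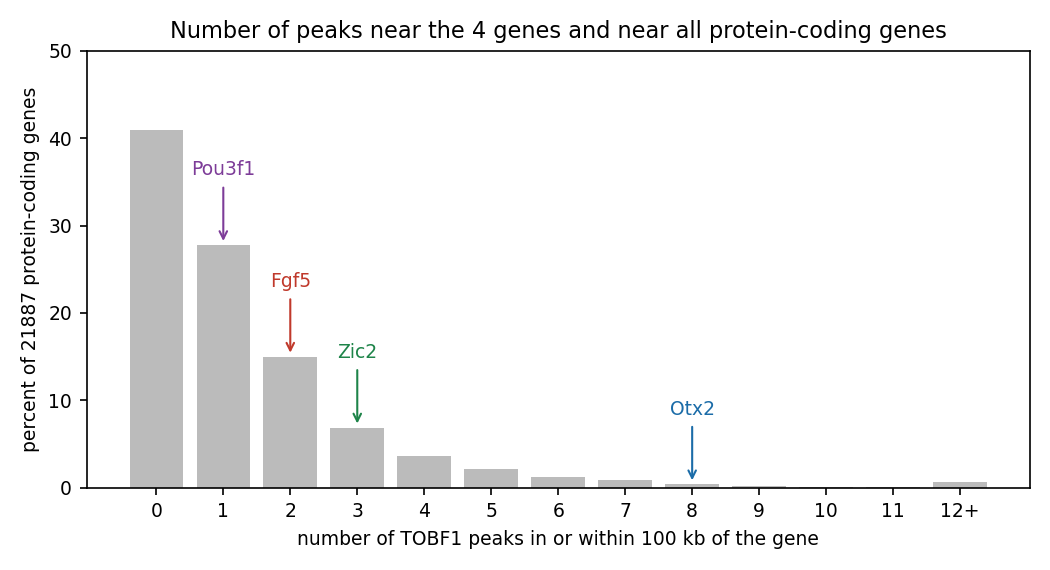
Share of 21887 protein-coding genes (vertical axis, percent) by their number of TOBF1 peaks in or within 100 kb (horizontal axis, 12 or more joined in the last bar). Arrows mark the 4 genes: Otx2 with 8 peaks stands in the thin upper range, Zic2 with 3 and Fgf5 with 2 lie lower, and Pou3f1 with 1 is at the median.

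**Figure D2:**
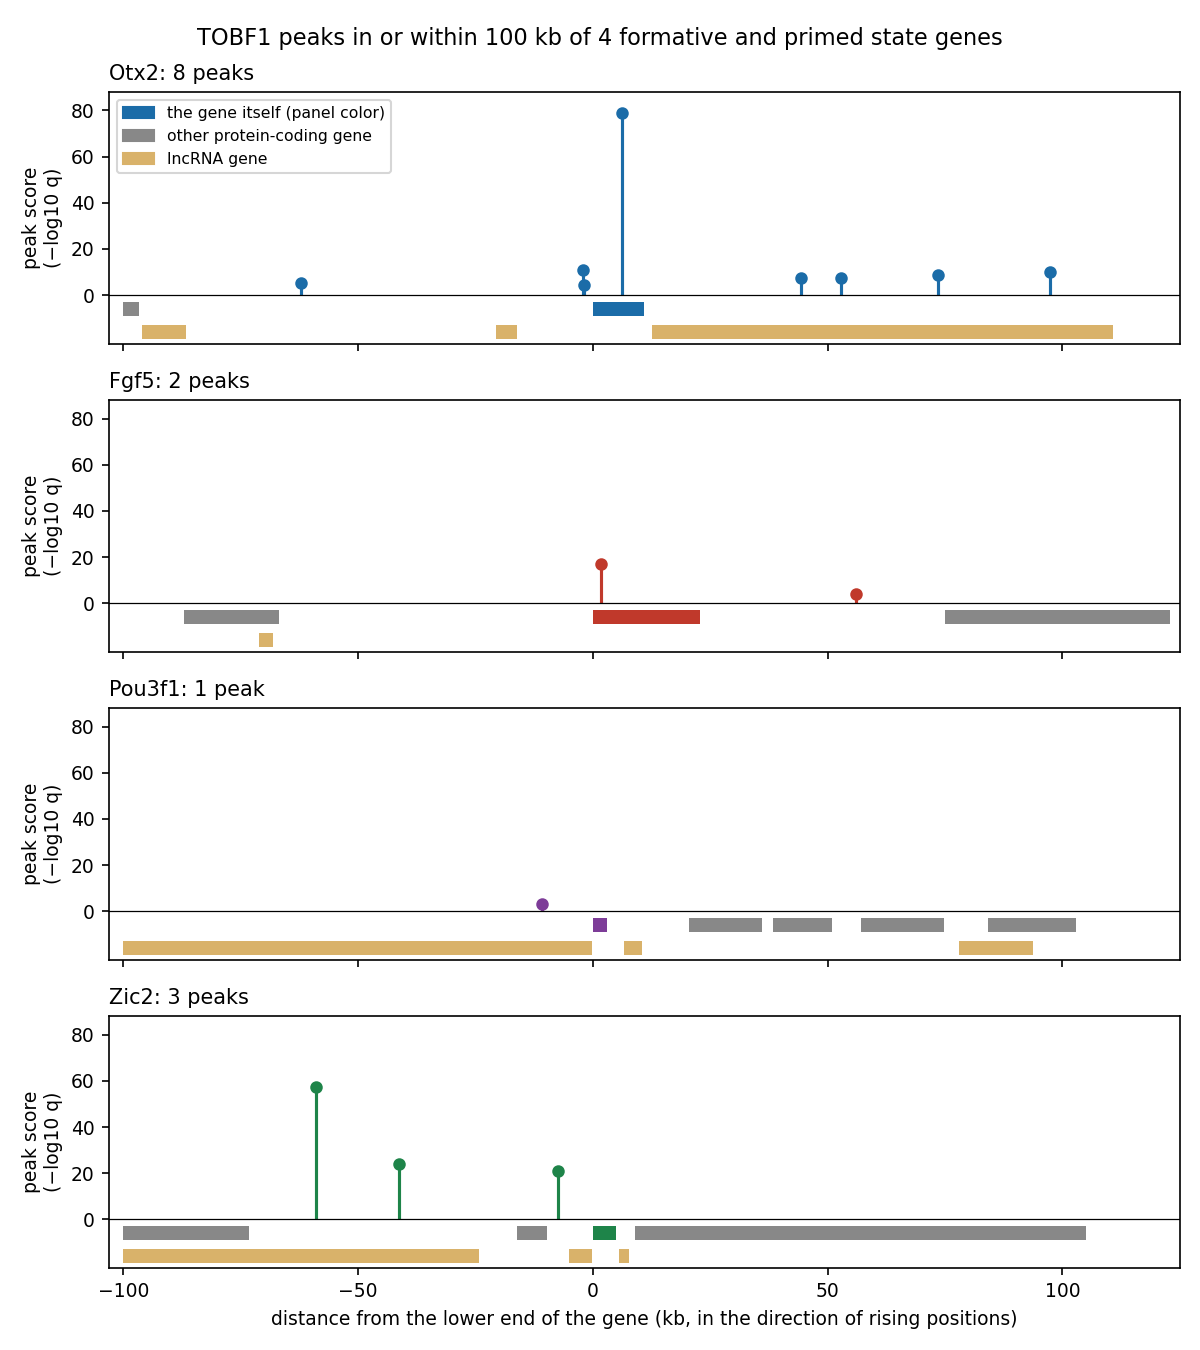
Score of each TOBF1 peak (vertical axis, −log10 q) by the distance of its midpoint from the lower end of the gene (horizontal axis, kb), 1 panel per gene. The colored bar under each axis is the gene itself, gray bars are other protein-coding genes and tan bars are lncRNA genes. Of the 8 peaks of Otx2, the strongest lies inside the gene and the others on both sides of it. The 3 of Zic2 all lie below the gene.

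Otx2 (RefSeq gene 18424, chromosome 14, 48656781 to 48667644) is read towards lower positions. Its strongest peak lay inside the gene (48662948 to 48663228, 281 bp wide) and had a score of 78.7. This was rank 174 among all 12181 peaks, in the highest 1.43%. The peak lay next to an internal start of the gene. RefSeq start windows, which run from 250 bases before to 50 bases after a start of transcription, number 4 at Otx2, with starts at 48667644, 48667508, 48665109 and 48662734. The peak reached from 214 to 494 bp upstream of the innermost start, with its midpoint 354 bp upstream of it. From the other starts its midpoint lay 2021, 4420 and 4556 bp downstream.

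The bases before the innermost start are shown because they hold the edge of the strongest peak near any of the 4 genes, and those before the next start upstream because they hold a motif match. Both are from RefSeq, build GRCm38.p6, minus strand, 5′ to 3′, and end at the base before the start. In the first, at chr14:48662735-48662984, capitals mark the 37 bases shared with the peak; in the second, at chr14:48665110-48665359, capitals mark the match described with the motifs.
Otx2, innermost start: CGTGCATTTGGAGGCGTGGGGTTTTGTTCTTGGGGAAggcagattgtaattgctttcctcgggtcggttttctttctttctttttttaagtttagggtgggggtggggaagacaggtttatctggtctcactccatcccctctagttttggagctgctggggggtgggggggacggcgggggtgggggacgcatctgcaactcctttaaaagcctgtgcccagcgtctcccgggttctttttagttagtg
Otx2, next start upstream: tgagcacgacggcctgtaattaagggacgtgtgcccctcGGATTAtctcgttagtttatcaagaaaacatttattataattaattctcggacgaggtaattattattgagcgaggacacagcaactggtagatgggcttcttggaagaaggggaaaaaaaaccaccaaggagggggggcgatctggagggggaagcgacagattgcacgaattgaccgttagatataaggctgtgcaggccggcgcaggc

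The innermost window was the one among the 4 Otx2 windows that overlapped a peak. Across all 32851 start windows of RefSeq genes on the chromosomes, 198 overlapped a peak, or 0.603%. For 5 of them the score of that peak was at or above that of the Otx2 peak, the Otx2 window included. The single window of Fgf5 overlapped no peak. Pou3f1 and Zic2 were not in the table of start windows.

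**Figure D3:**
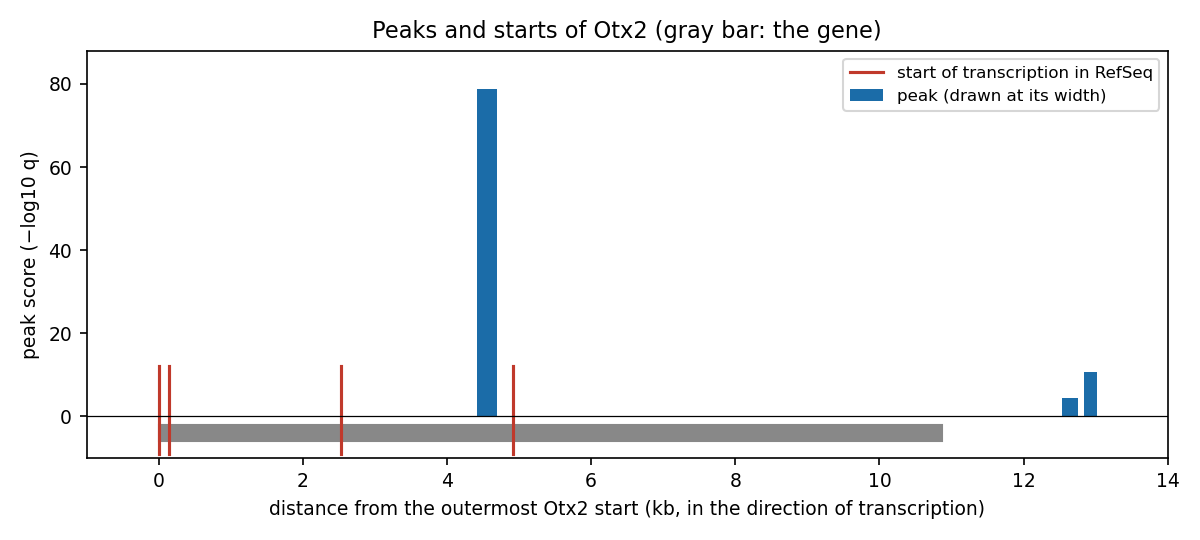
TOBF1 peaks in and just downstream of Otx2, drawn at their width, with their scores (vertical axis, −log10 q) by distance from the outermost start in the direction of transcription (horizontal axis, kb). Red lines are the 4 RefSeq starts and the gray bar is the gene; the peak with a score of 78.7 stands just before the innermost start, and 2 weaker peaks lie past the end of the gene.

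The other 7 peaks near Otx2 were much weaker. A pair with scores of 10.7 and 4.43 lay just past the end of transcription, at 2.07 kb and 1.78 kb from it, their midpoints 0.287 kb apart. Another, with a score of 5.34, lay 62.2 kb below the gene and was closer to Tmem260, which encodes a membrane protein, than to Otx2. The remaining 4 lay on the upstream side, 33.5, 42.0, 62.6 and 86.6 kb above the gene, with scores of 7.61, 7.56, 8.85 and 10.1. These 4 scores stood near or below the median of the whole list, so the high rank of Otx2 by score rests on the peak inside the gene. Its high rank by number rests mostly on peaks of middle and low score, since 3 of the 8 reached the list median. For 7 of the 8, Otx2 was the nearest protein-coding gene. Tmem260 was the sole other protein-coding gene to reach into the window.

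Fgf5 (RefSeq gene 14176, chromosome 5, 98254184 to 98277033) is read towards higher positions. Its stronger peak lay inside the gene (98255811 to 98256024), 1734 bp downstream of the start, with a score of 17.2 at rank 3418 of the list. The weaker one, with a score of 4.12, lay 33.2 kb past the end of the gene (98310132 to 98310319). It stood in the gap between Fgf5 and Cfap299, a gene named for cilia and flagella, and was closer to Cfap299, at 18.9 kb, than to Fgf5. No peak lay upstream of Fgf5 within the window, on the side of Prdm8, which encodes a PR domain factor.

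Pou3f1 (RefSeq gene 18991, chromosome 4, 124657646 to 124660655) had a single peak, 10.8 kb below the gene (124646798 to 124646932). Its score of 2.95 gave it rank 11686, so that 95.9% of all peaks scored at least as high, and its width of 135 bp was the smallest among the 14 peaks. No peak was found inside Pou3f1 or on the side of its protein-coding neighbours Utp11, Fhl3, Sf3a3 and Inpp5b. The next peak on any side was 204.9 kb away from this one.

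Zic2 (RefSeq gene 22772, chromosome 14, 122475384 to 122480328) had 3 peaks, all on its lower side, where its paralog Zic5 lies 9.73 kb away. The nearest (122467706 to 122468372) lay 7.345 kb below Zic2, in the stretch between both genes, with a score of 20.9. It was 2.38 kb above the upper end of Zic5, from which Zic5 is read. At 667 bp it was the widest of the 14 peaks and rank 193 by width in the list. The next (122434049 to 122434234) lay 41.2 kb below Zic2 with a score of 24.1. The strongest (122416330 to 122416714) lay 58.9 kb below it with a score of 57.5, rank 427 of all peaks. For none of the 3 was Zic2 the nearest protein-coding gene. This was Zic5 for the first and second and Clybl, which encodes a mitochondrial enzyme, for the strongest, at 14.3 kb. The same 3 peaks made up all those within 100 kb of Zic5, so the number of peaks and their scores are the same for both genes of the pair. No peak lay inside Zic2 or above it, where Pcca, a gene of propionate breakdown, fills the window.

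Over the 4 genes, the 14 peaks had a median score of 9.47, against 9.97 in the whole list, and 7 of the 14 reached the list median. Their median width was 187 bp, against 216 bp in the whole list. Of the 14, 2 lay inside a gene of the set, 12 outside it, and 9 were over 10 kb away. Of all peaks on the chromosomes, 41.9% lay inside a protein-coding gene. These shares cannot be compared directly, since the 14 peaks were taken from windows of 203 to 223 kb around genes of 3010 to 22850 bp. Beyond the window, the next peaks stood 152.0 kb below and 306.3 kb above Otx2, 184.7 and 161.9 kb from Fgf5, 215.7 and 475.8 kb from Pou3f1, and 133.2 and 586.3 kb from Zic2.

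A count chosen after the values were seen concerned long non-coding RNA (lncRNA) genes, which border Otx2, Pou3f1 and Zic2. The midpoints of 7 of the 14 peaks lay inside a lncRNA gene, against 9.5% of all peaks on the chromosomes. Near Otx2 these were the 4 upstream peaks, all inside Otx2os1, named as a transcript from the opposite strand. The single peak of Pou3f1 lay in Gm2164, and the stronger pair of peaks near Zic2 lay in Gm5089. Such genes also fill much of these windows. They covered 53.3% of the window of Otx2, 58.8% of that of Pou3f1, 40.3% of that of Zic2 and 1.29% of that of Fgf5, against 8.18% of all chromosomes. The part of this cover in the count was not tested.

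Letters of 5 binding motifs were searched on both strands of the 250 bases before each start, and none of the motifs contains another. They were ATTTGCAT, the octamer bound by POU factors, CATTGT for Sox factors, CTTTGAT for TCF and LEF factors, TAATCC for homeodomain factors of the Otx type, and CAGCAGG for Zic factors. Of all 32851 windows, 1.6% held the first, 10.7% the second, 3.21% the third, 6.25% the fourth and 8.44% the last. Among the 4 windows of Otx2 and the single window of Fgf5 there was 1 match. It was TAATCC on the opposite strand, 206 to 211 bases before the Otx2 start at 48665109. The window at the strongest peak, which shares 37 bases with it, held no match.

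The surroundings of the 4 genes were set beside 3 gene lists, counted by the same rule. Among 23 other genes of the formative and primed states, 21 had a peak within 100 kb (91.3%, exact 95% interval 72.0 to 98.9%), with a median of 2 peaks a gene. The 2 without one were Sox3, a SoxB1 factor, and Fgf8, an FGF ligand. Among 24 naive state genes 22 had a peak (91.7%, interval 73.0 to 99.0%), with a median of 4 peaks a gene, and Tcl1 and Stat3 had none. Of all protein-coding genes, 59% had a peak, with a median of 1. With peaks under the list's median score left out, 14 of the 23 (60.9%) and 21 of the 24 naive genes (87.5%) had one, against 40.5% of all protein-coding genes. Within 50 kb the shares were 78.3%, 91.7% and 42%. The intervals are Clopper-Pearson intervals and cover counting error only. They take genes as separate draws, but 4 of the 110 distinct peaks of the naive list were counted for 2 or more genes. The lists were also chosen with earlier results of these data known, so no test is drawn from the intervals. With 8 peaks, Otx2 had more than all but 1 of the 23 other formative and primed genes. It had fewer than 5 of the 24 naive state genes, whose highest number was 17. Each window includes the gene, 10864 bp long for Otx2. The median length was 7947 bp for the other formative and primed genes and 12839.5 bp for the naive genes. It was 17169 bp for all protein-coding genes. The part of gene length in these counts was not tested.

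By score, too, the lists overlapped. The highest scores among the other formative and primed genes were at Lef1, a Wnt pathway factor (87.7), Zic5 (57.5, the peak it shares with Zic2), the DNA methyltransferase gene Dnmt3b (50.1), the Ets factor gene Etv4 (47.4), Cdh2, which encodes N-cadherin (39.2), and Eomes, which encodes a T-box factor (27.3). Among naive genes they were at Klf2 (80.2), Il6st, which encodes the receptor chain gp130 (76.8), Tfcp2l1 (58.6), Tet2 (56.5), Tdh (42.6) and Klf4 (41.5). The median of the highest scores, over genes with a peak, was 13.1 for the other formative and primed genes, 30.1 for the naive genes and 15.3 for all protein-coding genes. The score at Otx2 thus lay close to the top of either list, and that at Pou3f1 below every gene with a peak in both.

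Peaks were found near 5 of 10 paralogs of the 4 genes, which is 50%, with a Clopper-Pearson 95% interval from 18.7 to 81.3%. With so few chosen genes and so wide an interval, this share cannot be told from or likened to the 59% among protein-coding genes. The genes are also not separate draws, since Zic1 and Zic4 are neighbours. Zic5 is 1 of the 5 and was counted among the other formative and primed genes as well, so these lists overlap. Otx1 had 2 peaks with a highest score of 38.4, and Crx, the Otx gene of photoreceptors, had none. In the subfamily of Fgf5, Fgf4, the main FGF ligand of ES cells, and Fgf6, a gene of muscle, had 2 each, with highest scores of 7.61 and 6.12. Fgf15, one of the other formative and primed genes, is on chromosome 7 like Fgf4 and had the same number of peaks and the same highest score. Of the other class III POU genes, Pou3f3 had 1 peak with a score of 5.34, and Pou3f2 and Pou3f4 had none. In the Zic family, Zic5 had the 3 peaks of its neighbour Zic2, and Zic1 and Zic4, which form another pair of neighbours, had none.

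**Figure D4:**
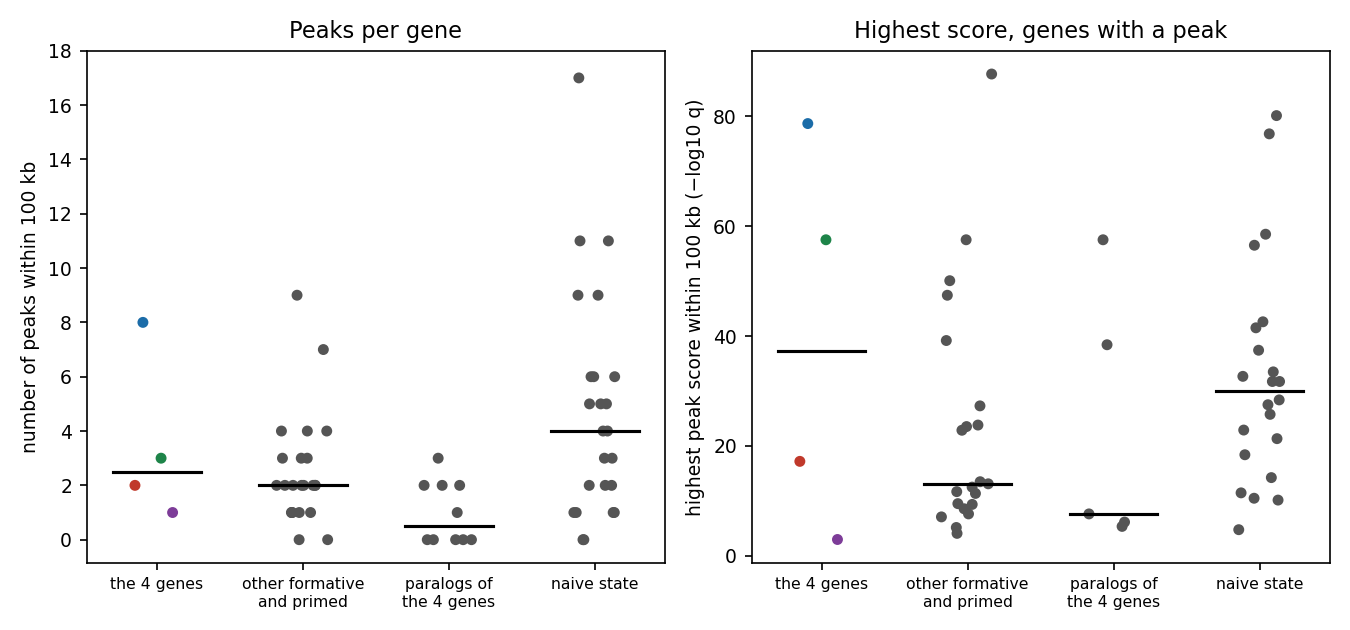
Number of TOBF1 peaks within 100 kb (left) and highest peak score within 100 kb, in −log10 q, of genes with a peak (right), 1 point per gene and a black line at the median of each list. The 4 genes are colored as in the panels of peaks by distance (Otx2 blue, Fgf5 red, Pou3f1 purple, Zic2 green) and span the range from 2.95 to 78.7 in score, which covers most of the other formative and primed genes.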

How the data were processed

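The study holds 1 ChIP-Seq library, precipitated with anti-GFP antibody, and 1 input library of R1/E cells. Per the submitters' processing notes, cutadapt, Bowtie2, MACS2 and bedtools were used with the mm10 build; the sources used here do not give versions, settings, read depth or whether the input entered the peak call. The authors' deposited peak list has no header, and its values, whose lowest was 1.30, place the score on the scale of −log10 of a q-value. Scores depend on depth and local background and were used only to rank and filter peaks within this list. Positions are given from 1.

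Genes came from RefSeq tables of GRCm38.p6, whose chromosome positions are those of mm10, and 27025 genes, among them 2 of the 4, had a start window. A peak counted for a gene when its midpoint lay in the gene or within 100 kb. The members and lists were chosen with earlier results of these data known, and 1 further gene of these lists is not reported here. The text names every peak of the 4 genes, their protein-coding neighbours and, per list, the 6 genes with the highest scores and those without a peak. Alternatives were windows of 50 and 200 kb, any overlap, peaks at or above the median score, peaks merged at gaps up to 1 kb, a window centred on the middle of the gene, the nearest gene only, genes of every type, and leaving out chromosome X. Counting was tested on simulated data. Python 3.11.15, pandas 2.3.3, NumPy 2.4.6, SciPy 1.17.1 and matplotlib 3.10.9 were used.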

Additional observations from a re-analysis of the deposited data

How the results depend on the processing

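Of 93 values recomputed, 73 stayed equal (scores) or within 1.5 times (counts) and 20 did not. No paired analysis was possible because there is 1 library per group, and none could be left out. Without the peaks under the list's median score, Otx2 had 3 peaks, Fgf5 1 and Pou3f1 0, so that no highest score or share could be given for Pou3f1; Otx2 then had no more peaks than Zic2, and 1197 genes (5.47%) had at least as many as either. The paralogs with a peak then numbered 2, the other formative and primed genes with one 14, and the naive genes with one 21. Within 50 kb, Otx2 had 5 peaks, and the highest score near Zic2 was 24.1. At least as many peaks as Otx2 were then found at 606 genes (2.77%), and as Fgf5 at 3892 (17.8%). Within 200 kb, Fgf5 had 4 peaks with a highest score of 18.9, and 616 genes had at least as many peaks as Otx2, and 8 paralogs had a peak. Counted for the nearest protein-coding gene only, Fgf5 had 1 peak and Zic2 0. Over genes of every type, which are more numerous, 712 genes had at least as many peaks as Otx2 (1.43%), 7469 as Zic2 (15.0%), 14444 as Fgf5 (28.9%) and 28028 as Pou3f1 (56.1%). The causes of the other changes were not tested. The window sets the counts, and the unknown depth limits what the lack of a peak shows.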

Other observations

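Some other formative and primed genes, chosen after their values were seen, had as many peaks around them as Otx2 or nearly so, with lower scores. Etv5, an Ets factor gene whose product acts in the exit from the naive state, had 9 peaks within 100 kb, with a highest score of 22.8. Tead2, which encodes a partner of the coactivator YAP, had 7 with a highest score of 13.1. Dnmt3b had 2 peaks, but a highest score of 50.1, so that number and score ordered these genes differently.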
